A study of Mus musculus with 20 samples.

Results

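The comparison described here is that of macrophages from the visceral fat of 24-month mice that lacked Nlrp3 with those of wild-type mice of the same age. Its members are 8 of the 20 libraries of the series, 4 per genotype, taken by their labelled genotype, tissue and age from the table of the fat libraries. All mice were male, and the null animals are labelled Nlrp3-/- with no Cre or tissue named, so the cells came from a host in which the loss was not restricted to macrophages. Cells were sorted from visceral adipose tissue (VAT) as F4/80 and CD11b positive, and poly-A RNA was sequenced as strand-specific libraries. Libraries of fat macrophages from 3-month wild-type mice (3 libraries) stand in the same table and give a reference level, and 7 spleen libraries of 24-month mice (4 wild type, 3 null) give the same genotype contrast in another organ. The labels give no identity of animals, litters or colonies, so the tests measure the spread between these libraries only.

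Nlrp3 is a cytosolic sensor that assembles with the adaptor Pycard (ASC) and the protease caspase-1 into an inflammasome, which cuts the precursors of interleukin-1 beta and interleukin-18 and opens gasdermin D pores in the cell membrane. The sensor acts on proteins, and its gene and that of interleukin-1 beta are themselves induced by NF-kB signals. Some fat macrophages lie along sympathetic nerves, and those that take up noradrenaline can degrade it with enzymes such as monoamine oxidase A. The title of the series names this breakdown, driven by the inflammasome in ageing, as its subject.

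The 8 libraries held 30.45 to 37.47 M (mega) recovered reads. Values below are normalised read counts, on which 3 reads, the most that a count of 0 allows, correspond to 2.64 to 3.20 (counting error only). Adgre1, the gene of F4/80, lay between 20416 and 42909 and Itgam, the gene of CD11b, between 7148 and 11952, and the genotypes overlapped in both. On a principal component analysis of the fat libraries, wild-type replicate 1 lay at -78.8 on the second component and the others between -22.2 and 31.2. Null replicate 4 stood apart in Nlrp3 itself. Both were kept, and the number of genes called without them is given below, with the medians of some lists.

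Loss of Nlrp3 was the one change in RNA that passed the test. Nlrp3 (mm10, chr11:59541568-59566956) stood at 3331, 3741, 2708 and 4254 in wild-type replicates 1 to 4 and at 10, 10.5, 6.15 and 200.4 in null replicates 1 to 4. It was lower in null libraries by a log2 difference of -7.39 (SE 0.73, 95% interval -8.96 to -5.82, limma adjusted p = 0.000864), and no null library reached any wild-type library. Of 19 alternatives 1, a robust edgeR fit added after seeing the data, did not call it (adjusted p = 0.38, over a range from 4.89e-11), with a log2 difference of -5.93. The 3-month libraries, at 2943, 3308 and 3198, lay within the range of the old wild-type ones. Null replicate 4 held about 200 normalised counts against 6.15 to 10.5 in the other null libraries. The labels do not say which exons the null allele lacks, so where these reads lie in the gene was not tested. The genes beside Nlrp3 serve as a description of the flanking chromosome. Of 64 tested genes within 2 megabases, 2 had an unadjusted p under 0.05 in limma (3.12%, against 6.09% of all genes), 36 had higher and 28 lower values in null libraries, and their median log2 difference was 0.02.

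**Figure D1:**
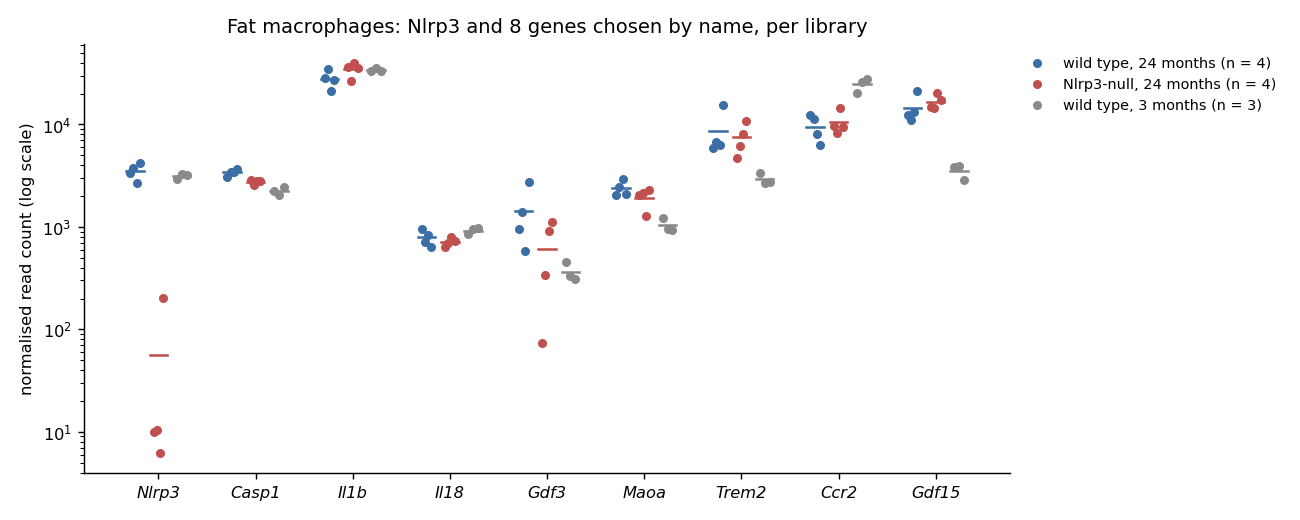
Normalised read counts (log axis) of Nlrp3 and 8 genes of interest, 1 point per library and a bar at the group mean, for wild-type and Nlrp3-null fat macrophages at 24 months and wild-type ones at 3 months. The 4 null libraries lie at 6.15 to 200.4 for Nlrp3 against 2708 to 4254 in wild type, while for the other genes the 24-month groups overlap except in Casp1.

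No other gene of the 13090 tested passed an adjusted p of 0.05 in limma. The 1 gene called is 0.00764% of those tested, and the next smallest adjusted p was 0.283, for Cma1. At an unadjusted p under 0.05 there were 797 genes (6.09%), 454 with higher values in null libraries (3.47%) and 343 with lower values (2.62%). In 456 genes (3.48%) the 4 null values did not overlap the 4 wild-type values, 227 higher (1.73%) and 229 lower (1.75%). The median log2 difference over all genes was 0.01, and 52.2% of genes had higher and 47.8% lower values in null libraries. These shares are the reference for the counts of gene lists below. Besides Nlrp3, the genes chosen by name whatever their test were Maoa, Gdf3, Gdf15, Casp1, Il1b, Il18, Trem2 and Ccr2, and every further gene below was chosen after its values were seen. edgeR also called 1 gene, Nlrp3 (edgeR adjusted p = 0.0478). DESeq2 called 29 of the 13081 genes to which it gave an adjusted p (0.222%), 20 higher and 9 lower in null libraries. Without null replicate 4 limma called Cma1 and Nfil3 besides Nlrp3, and without both libraries that stand apart it called Cma1 besides Nlrp3. Libraries of unlike genotype resembled each other as closely as those of like genotype. Spearman correlations across genes were 0.9559 to 0.9783 in 12 pairs within a genotype and 0.9526 to 0.9789 in 16 pairs between genotypes, as a description only.

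How large a difference could have been missed is given by the intervals. The 95% interval of a gene reached 0.52 to either side of its log2 difference in the median, and in 8699 genes (66.5%) it lay within -1 and 1. Among the 4465 genes with a mean of at least 1000 that share was 97.1%, and 14 of them had a log2 difference of at least 1 in size. Low genes were far less certain, and the 785 genes with a difference of that size (534 of them higher in null libraries) included 651 with a mean under 100, as the narrowing of the plot of all genes shows.

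**Figure D2:**
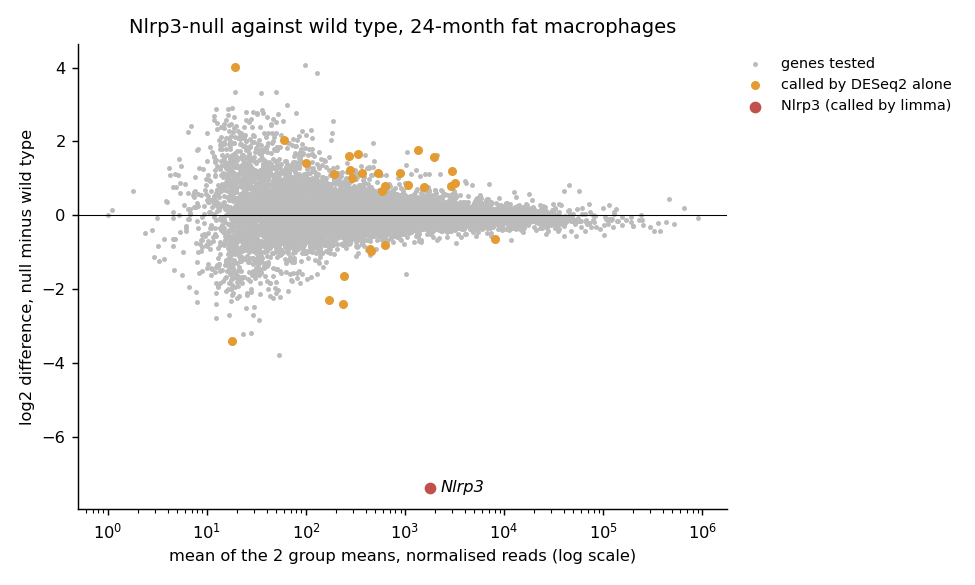
Log2 difference between Nlrp3-null and wild-type fat macrophages at 24 months against the mean level (log axis), 1 point per tested gene, with Nlrp3 and the genes called by DESeq2 alone in colour. Nlrp3 lies at -7.39, below every other gene, and the spread narrows as the level grows.

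No other gene of the inflammasome passed the adjusted test, and Casp1 was the one core component whose genotypes did not overlap. Casp1 (chr9:5298517-5307265), the protease that Nlrp3 activates, stood at 3053, 3467, 3419 and 3679.9 in wild-type and 2845, 2594, 2817 and 2795 in null libraries, a log2 difference of -0.30 (95% interval -0.53 to -0.07, limma adjusted p = 0.728). All 4 null values lay below all 4 wild-type values, and the 3-month values of 2217, 2029 and 2441 lay below both. Pycard, the adaptor, had a log2 difference of 0.03 (95% interval -0.25 to 0.31). Il1b (chr2:129364570-129371139), the gene of interleukin-1 beta, stood at 28611, 34876, 21266 and 27014 in wild-type and 36663, 26697, 39399.8 and 35649 in null libraries, a log2 difference of 0.32 (95% interval -0.02 to 0.65). Null replicate 2 was the lowest null library and lay inside the wild-type range. Il18 (chr9:50554827-50581840), the gene of interleukin-18, had a log2 difference of -0.13 (-0.47 to 0.22), and its groups overlapped.

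The inflammasome list holds 20 sensors, adaptors and caspases, in which Nlrp3 is not counted. At an unadjusted p under 0.05, 2 had higher and 1 lower values, against 3.47% and 2.62% of all genes. The median log2 difference was -0.03, or 0.06 without null replicate 2. The 2 higher ones were Panx1, the gene of a membrane channel that releases ATP, and Mefv, that of the sensor pyrin. Panx1 stood at 219.9, 198, 142 and 211 in wild-type and 473, 372, 369.9 and 321 in null libraries (log2 difference 0.998, 0.51 to 1.49), with no overlap. Mefv stood at 348, 508, 203 and 357 (wild type) and 568, 533, 583 and 484 (null) (log2 difference 0.68, 0.15 to 1.22), and null replicate 4 lay within the wild-type range. Of the 13 inflammasome cytokines and receptors none had an unadjusted p under 0.05. Their median was 0.07, and it was -0.03 without null replicate 3 and 0.37 without null replicate 2.

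The enzymes of catecholamine breakdown had slightly lower values in null libraries in most cases, and none passed the adjusted test. Of 18 tested, 15 had lower and 3 higher values (47.8% and 52.2% of all genes), 1 had an unadjusted p under 0.05, and the median log2 difference was -0.26. Maoa (chrX:16619698-16687818), monoamine oxidase A, stood at 2042, 2460.1, 2922 and 2099 in wild-type and 2027, 2165, 1276 and 2273 in null libraries, a log2 difference of -0.32 (SE 0.19, -0.72 to 0.08, limma adjusted p = 0.842). Its lowest value was null replicate 3, and the other 3 null libraries lay within or near the wild-type range. Without null replicate 3 its log2 difference was the smallest of any library left out, at -0.13. At 3 months Maoa stood at 1230.2, 946 and 924, below every 24-month library of either genotype.

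Among the remaining enzymes of this list, Rnls, the gene of renalase, had a log2 difference of -0.46, Sult1a1, a sulphotransferase, -0.38, and the aldehyde and aldose reductases Akr1a1 and Akr1b8 -0.27 and -0.38. For Akr1a1 the library apart from the rest was wild-type replicate 4, at 49407 against 32233 to 33736 in the other wild-type libraries. Aldh2, the mitochondrial aldehyde dehydrogenase, had a difference of -0.18. The intervals of all 5 crossed 0. Without wild-type replicate 4 the median of the list was -0.17. Of the 19 genes of catecholamine synthesis, uptake and receptors 6 were tested, most of them at low counts. None had an unadjusted p under 0.05, and 5 had higher and 1 lower values. Their median was 0.95, and it was 0.47 to 1.10 over the libraries left out in turn.

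Gdf3 (chr6:122605403-122610087), a secreted ligand of the TGF-beta family that signals through the activin receptor ALK7 on fat cells, had the most negative difference of the 8 genes chosen by name. It stood at 961, 1403, 587 and 2719 in wild-type and 74.0, 339, 921 and 1125 in null libraries, and at 456, 330.5 and 310.4 at 3 months. The log2 difference was -1.59 (SE 0.67, 95% interval -3.02 to -0.16, limma adjusted p = 0.79). The libraries ranged widely within each genotype, 2 of the 4 null values lay inside the wild-type range, and without null replicate 1 the difference was -0.78. Gdf15, a stress-induced cytokine of the same family, stood at 12286, 11105, 13316 and 21411 in wild-type and 14745, 14370.3, 20344 and 17237 in null libraries (log2 difference 0.23, -0.17 to 0.64). Both groups lay far above its 3-month values of 3808, 3908 and 2867. Over the 17 tested genes of this family 2 had higher and 1 lower values at an unadjusted p under 0.05, against 3.47% and 2.62% of all genes. The median was 0.0023 (-0.02 to 0.0036 over the scalings tried).

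Genes of resident fat macrophages had lower values in null libraries in 25 of 27 cases, against 47.8% of all genes. Their median log2 difference was -0.31 against 0.01 over all genes. None passed the adjusted test, and 2 had an unadjusted p under 0.05, against 6.09% of all genes. These 2 were Folr2, a folate receptor, and Mertk, a receptor for the uptake of dying cells. Folr2 stood at 47028, 47853, 57908 and 37058 in wild-type and 40902, 38004, 20145 and 31953 in null libraries (log2 difference -0.57, -0.997 to -0.14). Mertk stood at 1451, 1756, 1574 and 1355 (wild type) and 1100.1, 1052, 1259 and 1094 (null) (log2 difference -0.44, -0.79 to -0.09), with no overlap between the genotypes. In both genes wild-type replicate 4 was the lowest wild-type library.

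In defining genes of this state the libraries ranged widely within each genotype. Lyve1, a hyaluronan receptor of vessel-associated macrophages, stood at 21443, 30661, 37835 and 8976 in wild-type and 23292, 19186, 10306 and 15629 in null libraries. Timd4, a receptor for phosphatidylserine, stood at 2915, 3069, 4529 and 1111 (wild type) and 2823, 2984, 1488 and 1531 (null), and the lectin Cd209f at 149458, 123717, 158063 and 52090.3 (wild type) and 105529, 122281, 49107 and 55956 (null). Wild-type replicate 4 and null replicate 3 were the lowest libraries of their group in all 3 genes. In Timd4 and Cd209f null replicate 4 was close to null replicate 3. Without wild-type replicate 4 the median of the 27 genes was -0.56, and without wild-type replicate 3 it was -0.14, so its size rests on single libraries although its sign did not turn. In such bulk libraries fewer cells of a type and less RNA per cell cannot be told apart.

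Of 11 general macrophage genes 4 had higher and 7 lower values in null libraries, and 2, Mertk and Lyz2, had lower values at an unadjusted p under 0.05. The median was -0.07 and ran from -0.08 to 0.04 over the scalings tried, and it was -0.18 without both libraries that stand apart. Their summed counts, of which Lyz2 is a large share, were 698243 to 792450 in wild-type and 590750 to 640264 in null libraries, without overlap, against 696055 to 796344 at 3 months. Lyz2, lysozyme, stood at 415645, 434873, 407800 and 467774 in wild-type and 346445, 313021, 315055 and 318554 in null libraries, a log2 difference of -0.42 (-0.77 to -0.06, limma adjusted p = 0.777) without overlap. With quantile normalisation it was -0.20. Csf1r, the receptor for the main macrophage growth factor, had a difference of -0.15 (-0.46 to 0.17) and Cd68, a lysosomal glycoprotein, -0.32 (-0.65 to 0.0083). Lyz2 has a close copy in the genome, and how reads that match several genes were counted is not given in the sources used here.

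Lists of lipid-loaded macrophages, lysosomes and lipid or iron metabolism had medians near 0. Of 22 lipid-associated macrophage genes 7 had higher and 15 lower values, with a median of -0.14 that was 0.12 without wild-type replicate 4, -0.26 without null replicate 4 and -0.32 without both libraries that stand apart. Trem2 (chr17:48346401-48354147), the lipid-sensing receptor of this state, stood at 5909, 6678, 6265 and 15401 in wild-type and 4677, 6115, 8155 and 10921 in null libraries (log2 difference -0.14, -0.76 to 0.47). Wild-type replicate 4 was more than 2-fold above the other wild-type libraries, and without it the difference was 0.18. Cd36, a fatty acid receptor, stood at 69528, 71929, 73697 and 87390.2 in wild-type and 54709, 54416, 54428 and 59243 in null libraries (log2 difference -0.44, -0.71 to -0.16) with no overlap. Acp5, an acid phosphatase, was at 1448, 1961, 2229 and 7346 (wild type) and 2920.4, 5103, 5733 and 6122 (null) (log2 difference 0.87, 0.06 to 1.69).

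Of 26 lysosomal genes 1 had an unadjusted p under 0.05, against 6.09% of all genes, and the median was -0.11, or -0.05 without wild-type replicate 4. Among 21 genes of lipolysis and fatty acid oxidation it was Abhd5 alone, the co-activator of the fat lipase, with a log2 difference of -0.43 (-0.75 to -0.12). Of 18 genes of iron and haem handling 14 had lower values, against 47.8% of all genes, with a median of -0.13. Blvrb, a biliverdin reductase, was the 1 gene of them at an unadjusted p under 0.05 (log2 difference -0.39, -0.68 to -0.10). In cholesterol synthesis and efflux 3 of 24 genes had higher values at that threshold, against 3.47% of all genes. Among them was Scd2, a fatty acid desaturase (log2 difference 0.61, 0.09 to 1.14). The 32 genes of the respiratory chain and the 40 of cytosolic ribosomes had none, with medians of -0.03 and -0.0025, and that of the ribosomal genes reached 0.05 under another scaling. Their members ran from -0.18 to 0.19 and from -0.105 to 0.27.

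None of the listed genes of NF-kB signalling and cell activation passed the adjusted test. Of 23 NF-kB-induced cytokine and chemokine genes 16 had higher values, against 52.2% of all genes, with a median of 0.16. An unadjusted p under 0.05 was found in 3 of them, against 6.09% of all genes. Cxcl1, a chemokine for neutrophils, stood at 39099, 54053, 31788 and 52881 in wild-type and 64172, 57995, 54706 and 103478 in null libraries (log2 difference 0.64, 0.20 to 1.08), with every null value above every wild-type one and replicate 4 the highest. Socs3, an inhibitor of cytokine signalling, had a difference of 0.49 (0.14 to 0.84), also without overlap, and Ptgs2, cyclooxygenase-2, 0.47 (0.03 to 0.91). Nfkbia, which encodes the inhibitor of NF-kB, stood at 128945, 126503, 132999 and 124648 (wild type) and 143674, 143738, 142781 and 143318 (null). Its groups did not overlap, although its difference was small, at 0.16 (-0.10 to 0.42).

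Of 25 immediate early genes 22 had higher and 3 lower values, against 52.2% and 47.8% of all genes, with a median of 0.13. At an unadjusted p under 0.05 were Dusp2, a phosphatase of activated immune cells, at 718, 437, 699 and 1117 in wild-type and 1911, 1642, 1699 and 990 in null libraries (log2 difference 1.11, 0.52 to 1.69), and Nr4a2, an orphan nuclear receptor (0.40, 0.02 to 0.79). Without wild-type replicate 4 the median was 0.03, and without both libraries that stand apart it was 0.25. Cells were sorted before lysis, and whether sort or handling time differed between the libraries was not tested. Of 26 type I interferon response genes 18 had lower values, against 47.8% of all genes. Their median was -0.20, and it was -0.04 without wild-type replicate 4, -0.09 without null replicate 2 and -0.36 without null replicate 3. Usp18, a brake on interferon signalling, was the 1 at an unadjusted p under 0.05, at 1573, 1502, 1220.3 and 1804 in wild-type and 823, 906, 1624 and 876 in null libraries (log2 difference -0.57, -1.01 to -0.13). Its null replicate 3 lay with the wild-type libraries. Of 20 genes of heat shock and the unfolded protein response 3 had higher values at an unadjusted p under 0.05, against 3.47% of all genes. Among them were Xbp1 (0.33, 0.05 to 0.61) and Chac1 (1.36, 0.22 to 2.51), and the median of the list was 0.06.

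**Figure D3:**
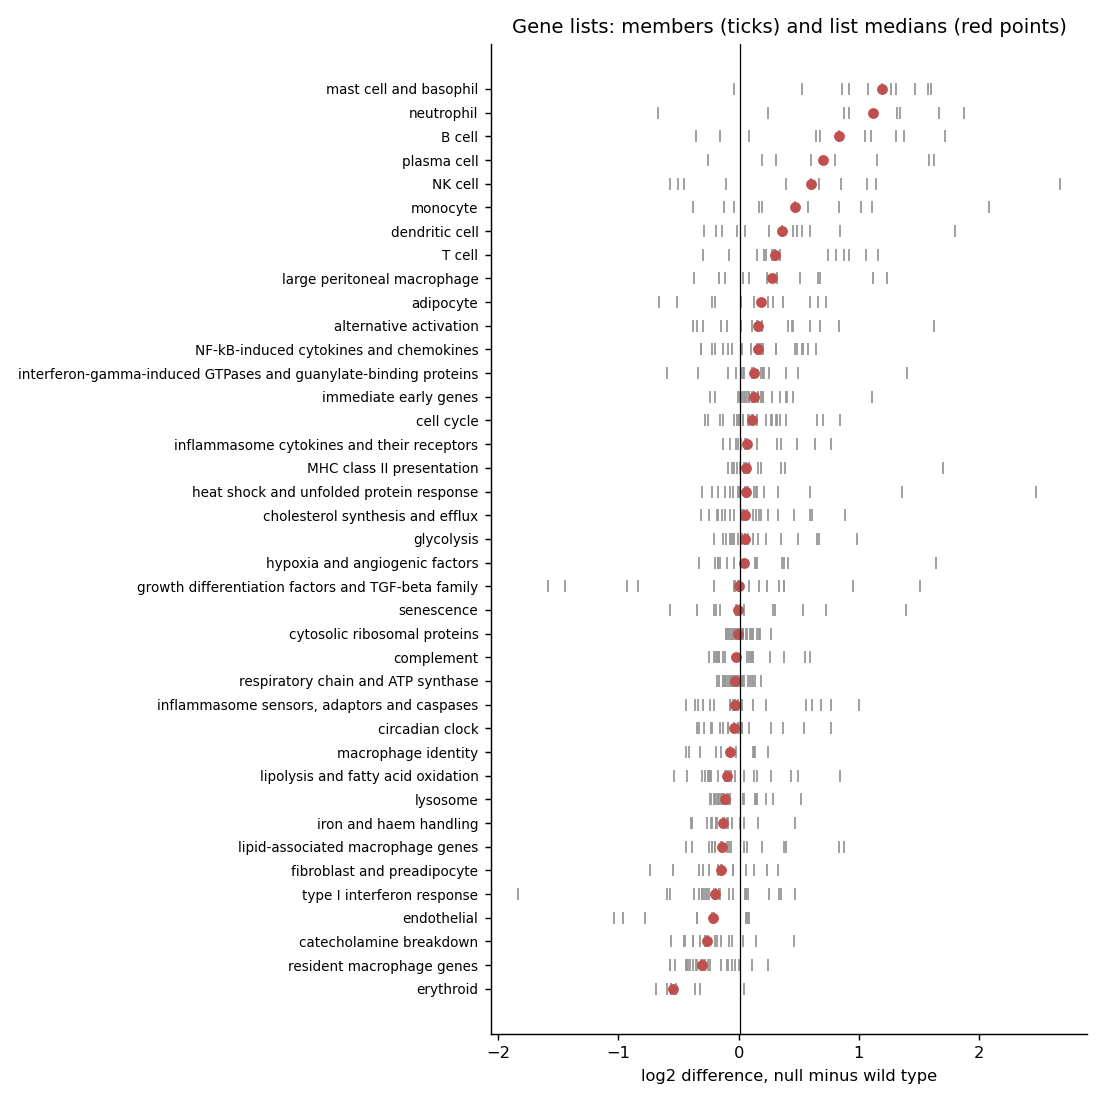
Log2 differences between null and wild-type fat macrophages for gene lists with at least 8 tested members, with a tick per member and a red point at the list median. The vertical line marks the median of all genes, 0.01. List medians run from -0.54 (erythroid) to 1.20 (mast cell and basophil).

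Genes typical of mast cells and basophils, neutrophils, B cells and plasma cells gave the highest medians among lists with at least 8 tested members. The null libraries ranged widely in them. Erythroid genes had the lowest median among such lists, at -0.54. Of 11 mast cell and basophil genes 10 had higher values in null libraries and 5 an unadjusted p under 0.05, against 52.2% and 6.09% of all genes. The median log2 difference of the 11 was 1.20. The summed counts of the list, of which Tpsb2 and Cma1 are a large share, were 3584 to 4255 in wild-type and 4492 to 17227 in null libraries, without overlap. At 3 months they were 3523 to 5458, which overlapped the null range. Cma1 (chr14:55941451-55944675), the chymase of connective tissue mast cells, stood at 854, 975, 948 and 871 in wild-type and 2869, 5058, 2590.2 and 1464 in null libraries. Its log2 difference was 1.58 (SE 0.27, 0.99 to 2.17, limma adjusted p = 0.283). The wild-type libraries of Cma1 lay close together and near the 3-month values of 870.2, 1317 and 982, and null replicate 2 was the highest.

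Null replicate 2 was also the highest, and null replicate 4 the lowest, in 3 further mast cell genes. The tryptase Tpsb2 stood at 1383, 1808, 1744 and 1564 in wild-type and 4609.6, 7828, 3016 and 1734 in null libraries (log2 difference 1.20, 0.49 to 1.90). The carboxypeptidase Cpa3 stood at 279.7, 417, 344 and 289.6 (wild type) and 759, 1472, 662 and 314 (null) (1.08, 0.30 to 1.86), and the chymase Mcpt4 at 84.3, 265, 316 and 321 (wild type) and 702, 837, 455 and 289 (null) (1.27, 0.35 to 2.19). Fcer1a, the chain of the IgE receptor that binds IgE, stood at 33.1, 132, 123 and 65.4 (wild type) and 221, 316, 144 and 213 (null) (1.47, 0.23 to 2.71) and separated the groups. Tpsb2 and Tpsab1, Mcpt4, Ly6c2 and Klrb1b belong to families with close copies, so reads may have been split among them.

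Of 15 listed neutrophil genes 8 were tested, and Ly6g, Mpo, Elane, Ngp, Ltf, Camp and Ctsg had no value in the fat libraries. Of the 8, 7 had higher values and 3 an unadjusted p under 0.05, against 52.2% and 6.09% of all genes. The median of the 8 was 1.12. S100a8, a chain of calprotectin, stood at 80.1, 141, 324 and 133 in wild-type and 360.0, 457, 746 and 408 in null libraries (log2 difference 1.67, 0.88 to 2.45), and its partner S100a9 at 137, 131, 372 and 199 (wild type) and 395, 585, 736 and 328 (null) (1.34, 0.62 to 2.07). In both genes the highest wild-type library was replicate 3 and the highest null one replicate 3. Retnlg, another neutrophil gene, had a log2 difference of 0.92 (-1.06 to 2.90) that was -0.27 without wild-type replicate 4, where it stood at 159.6. The summed neutrophil counts of 1775 to 8343 in wild-type and 3446 to 10935 in null libraries overlapped.

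Plasma cell and B cell genes had positive medians as well. Of 8 plasma cell genes 7 had higher values and 2 an unadjusted p under 0.05, against 52.2% and 6.09% of all genes. The median of the 8 was 0.70, and it was 0.48 without wild-type replicate 1. Mzb1, a chaperone of antibody assembly, stood at 633, 584, 1116 and 1763 in wild-type and 2305, 4483, 1454 and 4391 in null libraries (log2 difference 1.62, 0.67 to 2.58), and Derl3, of protein export from the endoplasmic reticulum, at 39.5, 74.7, 126 and 112 (wild type) and 291, 314, 193 and 200.4 (null) (1.59, 0.64 to 2.53). Jchain, the joining chain of antibodies, stood at 22104, 29234, 47385 and 28309 (wild type) and 75221, 81599.9, 48536 and 27165 (null) (0.81, -0.02 to 1.63), and null replicate 4 lay within the wild-type range. Summed plasma cell counts, of which Jchain is a large share, were 27256 to 52474 in wild-type and 36740 to 92017 in null libraries, against 6913 to 15097 at 3 months.

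Of 11 B cell genes 9 had higher values, against 52.2% of all genes, with a median of 0.83. At an unadjusted p under 0.05, 2 had higher values, Ms4a1 and Cd79a, and 1, Bank1, a lower one (log2 difference -0.35). Ms4a1, the gene of CD20, stood at 311, 277, 228 and 1354 in wild-type and 578, 2891, 1303 and 1437 in null libraries, and Cd79a, a chain of the B cell receptor, at 671, 498, 695 and 2567 (wild type) and 1011, 3128, 1868 and 2164 (null). In both genes wild-type replicate 4 lay within the null range and the other 3 wild-type libraries below it, and without it the median was 1.48. Without wild-type replicate 2 it was 0.45, and on recovered reads with DESeq2 0.55. For monocyte genes the median was 0.47 over 11, with 3 at an unadjusted p under 0.05, against 6.09% of all genes. Plac8, a gene of monocytes and other leukocytes, stood at 1234, 899, 778 and 1192 (wild type) and 1423, 2086, 4836 and 1575 (null), and Ly6c2, the gene of the classical monocyte marker, at 463, 449.9, 412 and 618 (wild type) and 693, 939, 2615 and 531 (null). Null replicate 3 was the highest in both, and without it the list median was 0.22. Ccr2 (chr9:124101950-124113557), the receptor that draws monocytes into tissue, stood at 12308, 11301, 7998 and 6259 in wild-type and 9590.2, 8346, 14557 and 9481 in null libraries (log2 difference 0.17, -0.29 to 0.62), a difference that was -0.02 without wild-type replicate 4 and -0.0022 without null replicate 3.

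T cell genes had a median of 0.30 over 15, with Cd4 the 1 at an unadjusted p under 0.05 (log2 difference 1.16, 0.43 to 1.89). That median was 0.07 without null replicate 3, 0.57 without wild-type replicate 1, 0.78 without null replicate 4 and 1.05 without both libraries that stand apart. NK cell genes had a median of 0.60 over 11, which was 0.27 without null replicate 3 and 0.39 without wild-type replicate 3. Adipocyte genes, at a median of 0.19 over 12, and the 14 fibroblast and preadipocyte genes, at -0.14, overlapped in their summed counts. Both medians turned sign with 1 library left out, to -0.0045 for adipocyte genes without null replicate 4 and to 0.09 for fibroblast genes without null replicate 1. Mfap5, a fibre protein of connective tissue, was the 1 fibroblast gene at an unadjusted p under 0.05, at 2235, 1874, 1505 and 1528 in wild-type and 913, 1178, 1387 and 842 in null libraries (log2 difference -0.73, -1.12 to -0.35). The erythroid median of -0.54 over 8 was -0.02 without wild-type replicate 3 and -0.91 without wild-type replicate 4. The part of these cell types in the differences of other genes was not tested.

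**Figure D4:**
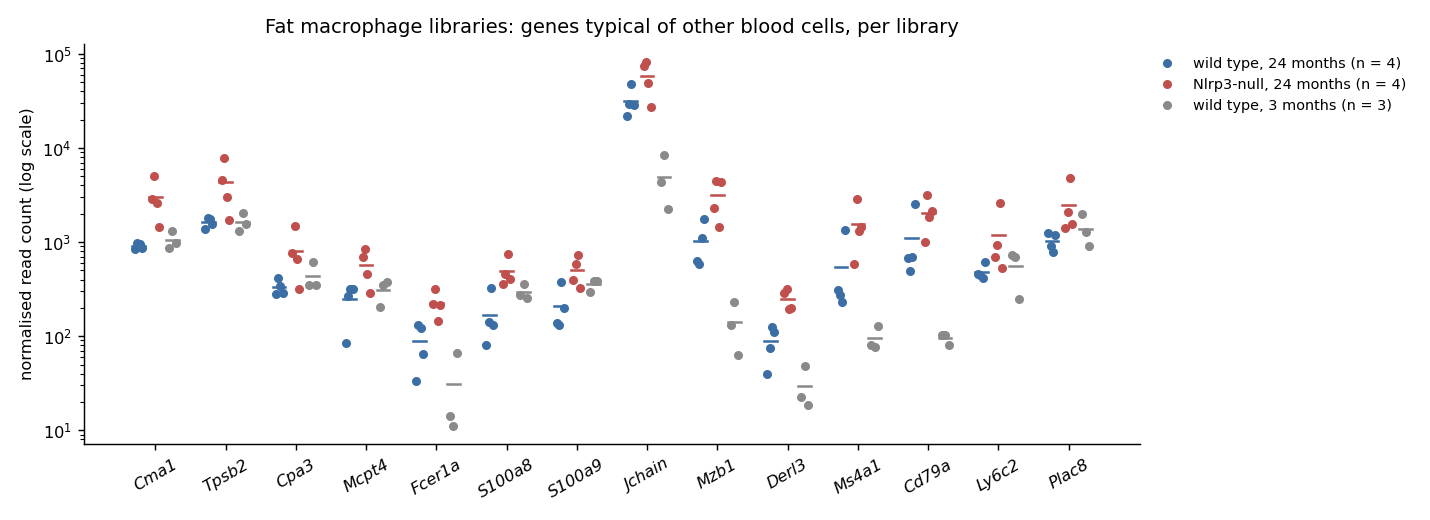
Normalised read counts (log axis) of genes typical of mast cells, neutrophils, plasma cells, B cells and monocytes in the fat macrophage libraries, with 1 point per library and a bar at the group mean. For Cma1 the null libraries lie at 1464 to 5058 and the wild-type ones at 854 to 975.3, while Ms4a1 and Cd79a have 1 wild-type library among the null ones.

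DESeq2 called 28 genes besides Nlrp3, and neither limma (adjusted p 0.283 to 0.547) nor edgeR (0.188 to 0.453) called any of them. They were chosen for mention by that result. Nlrp3 itself had an edgeR adjusted p of 0.0478, close to the threshold. Ly6d, a small surface protein, stood at 381, 511, 652 and 819 in wild-type and 1455, 3374, 1094 and 2627 in null libraries (log2 difference 1.77, 0.92 to 2.62), and Tnfrsf13c, the gene of the receptor for the B cell survival factor BAFF, at 121, 64.3, 164 and 201 (wild type) and 331, 427, 248 and 624 (null) (1.60, 0.79 to 2.41). Cd69, an early activation marker of leukocytes, stood at 297, 740.0, 593 and 622 (wild type) and 1543, 1122, 1446 and 778 (null) (1.15, 0.52 to 1.77). Klrb1b, a receptor of natural killer cells, stood at 124, 123, 107 and 123 (wild type) and 296, 342, 237 and 182 (null) (1.11, 0.52 to 1.70).

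Of the other genes with higher values, Ube2h, a ubiquitin-conjugating enzyme, stood at 2552, 2276, 1790.3 and 1991 in wild-type and 2782, 4099, 3768 and 4212 in null libraries (log2 difference 0.78, 0.45 to 1.12). Trp53inp1, a p53-induced stress gene, stood at 663, 722, 956 and 775 (wild type) and 1353, 1624, 1170.3 and 1358 (null) (0.82, 0.45 to 1.20), and Creld2, a gene of endoplasmic reticulum stress, at 2298, 1981, 2354 and 2188 (wild type) and 3255, 4505, 2912 and 5979.9 (null) (0.86, 0.45 to 1.27). Nfil3, a transcription factor that represses clock genes, stood at 1102, 1159, 1292 and 985 (wild type) and 2223, 1992, 2601 and 1182 (null) (0.77, 0.35 to 1.18), with null replicate 4 close to wild type. The 3-month values of Nfil3, 4519.8, 4289.9 and 4488, were higher than both. The core clock gene Arntl, which was not called, had a difference of -0.09 (-0.47 to 0.30) that turned positive without wild-type replicate 2 (0.04) or null replicate 3 (0.0049), and the 19 clock genes a median of -0.04, which was -0.12 without wild-type replicate 4 and 0.0049 without null replicate 3. Gm29684, an unnamed gene model, stood in every wild-type library at 1, the lowest value in the table and taken here as 0 reads, and at 11, 52.6, 27.2 and 57.5 in null libraries.

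The remaining genes with higher values were Arid3a (1.22), Sept1 (1.15), Ppp1r16b (1.14), Strip2 (2.03), Gm17821 (1.42), Fam46c (0.80) and Usp12 (0.65), given as log2 differences. Panx1, Cma1, Tpsb2 and S100a8, described above, complete the genes with higher values.

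Among the genes with lower values, Hpgd (chr8:56294585-56321043) encodes the dehydrogenase that inactivates prostaglandin E2. It stood at 10931, 9268, 9958 and 9561 in wild-type and 7125, 6749.9, 5279.7 and 6556 in null libraries. Its log2 difference was -0.63 (SE 0.12, -0.88 to -0.38, limma adjusted p = 0.366), and the groups did not overlap. Its 3-month values of 7305, 6223 and 7309 lay near those of the null libraries. Pydc3, a gene of the interferon-inducible PYHIN cluster, stood at 636, 228, 385 and 322 in wild-type and 22, 114, 111 and 76.1 in null libraries (log2 difference -2.41, -3.44 to -1.38). Xlr3b, an X-linked gene, stood at 287, 426, 383 and 383 (wild type) and 74.0, 139.8, 115 and 148 (null) (-1.66, -2.34 to -0.98). Both belong to groups of near-identical genes, so their counts are uncertain. The log2 difference of Pydc4 was -0.39 and that of Xlr3a -1.51, each at an unadjusted limma p above 0.05.

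Sfrp4, a secreted inhibitor of Wnt signals made by fat stroma, stood at 606, 236, 149.8 and 158 in wild-type and 65.0, 78.8, 60.6 and 17.6 in null libraries (log2 difference -2.29, -3.43 to -1.14), with wild-type replicate 1 the highest. Myct1, an endothelial gene, stood at 72.6, 37.8, 15.7 and 8.96 (wild type) and 1, 1, 1 and 3.71 (null), so that 3 null libraries were at the lowest value in the table. Laptm4b (-0.96), Trmt11 (-0.93) and Hrsp12 (-0.80) were the remaining ones, with no overlap between the groups in any of the 3.

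In spleen macrophages of 24-month mice the same contrast also called Nlrp3 alone, of 13053 genes (0.00766%), with 808 at an unadjusted p under 0.05 (6.19%). The spleen libraries are other libraries, although whether they came from the same mice is not stated. Of the 28 DESeq2 genes of fat 25 were tested there, 14 had a difference of the same sign, and 4 had an unadjusted limma p under 0.05 (16%), 3 of them with the same sign. These 3 were S100a8, with a spleen log2 difference of 1.21, Pydc3, with -1.37, and Ube2h, with 0.42. The fourth, Ppp1r16b, a regulatory subunit of a phosphatase, had -0.49 in spleen against 1.14 in fat. The smallest adjusted p among these 4 in spleen was 0.571. Leaving out Nlrp3, 733 genes of fat and 750 of spleen that both tables tested had an unadjusted p under 0.05. They shared 68, which is 9.28% of the fat genes and 9.07% of the spleen genes, and 28 of the 68 had the same sign. The share of same sign over all genes tested in both organs was not computed, so neither count of signs has that reference.

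None of the genes chosen by name passed the adjusted test in spleen. Gdf3 had a log2 difference of -3.12 in spleen (limma adjusted p = 0.782), the same sign as in fat, at levels of 74.8 to 190.4 in wild-type and 1 to 107.5 in null libraries. Maoa was low in spleen, at 1 to 40.8 in wild-type and 31.3 to 42.6 in null libraries, so its spleen difference is not comparable in weight. Casp1 had 0.14 and Il1b 0.23 in spleen.

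Whether the genotype difference was unlike in fat and spleen was tested on recovered reads of 15 libraries. Of 12150 genes limma called 0, with 977 (8.04%) below 0.05 before adjustment. On the same reads edgeR called 1, Lyz2. Lyz2 was lower in null fat libraries, as above, and had a log2 difference of 0.63 in spleen, and the difference between the organs was -1.07 (SE 0.19, limma adjusted p = 0.176). For Nlrp3 it was 0.65 (SE 1.17). Both organs have their own table, so these differences depend on the rescaling of one against the other.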

How the data were processed

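The authors deposited 1 table per set of libraries, with 1 signal per gene and library that is a normalised read count. The submitters' processing notes name CASAVA 1.8.2, Partek, TopHat and DESeq2, and the mm10 build. What each did, how reads were counted and which genes were removed are not given in the sources used here. At least 99.788% of values up to 20000 reads were whole multiples of 1 step per library within 0.05 read, so whole reads were recovered from the deposited signal. The table of fat libraries differed from that of wild-type libraries in 62 of 91476 shared entries, in 53 genes. None of these has a value in the text, and 2, Cyp51 and Lgals3, are list members. Entries of null libraries stand in 1 table only and were not checked this way.

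Genes whose mean over the 11 fat libraries reached 10 were tested on log2(value + 1) with limma 3.58.1 (R 4.3.3), with a trend and 1 mean per group. Tests were two-sided, with Benjamini-Hochberg adjustment over all genes and a threshold of 0.05. A fold on this scale understates the change of low genes. edgeR 4.0.16 (quasi-likelihood) and DESeq2 1.42.0 (Wald) were run on recovered reads as alternatives. The organ by genotype test used recovered reads of 15 libraries, rescaled by median of ratios. The tests were also run on simulated counts with the same relative spread in every gene and no outlying library, unlike these data. That run cannot show which of the DESeq2 calls are false. Positions of 95.8% of tested genes come from GENCODE annotation of mm10.

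Named were Nlrp3, genes called with groups apart (none besides Nlrp3), 8 genes chosen by name whatever their test (a further one is not reported here), and called list members (none). Members and lists were chosen with earlier results of these data known. Lists are described by counts and medians. Deviations from the group mean, compared across genes between libraries of like replicate number, had correlations of 0.15, -0.01, -0.15 and 0.24. The main fit used no block. On the principal components wild-type replicate 4 (41.5, 31.2) lay near null replicate 4 (35.4, 30.2) and null replicate 3 (30.4, 26.7). Whether libraries of like number shared a batch was not tested.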

Additional observations from a re-analysis of the deposited data

Results flagged for a closer look

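In 17 of 212 groups of 4 libraries checked, over the genes named and the summed markers, the highest or lowest library lay apart from the other 3 by a share of the group's range above Dixon's 95% critical value. For independent, normally distributed values chance alone gives this in about 1 of 20 groups. These are counts on the plain scale, and some sums contain genes that were also checked singly, so that rate is only a rough guide. For Nlrp3, null replicate 4 stood at 200.4 against 6.15 to 10.5 in the other null libraries.

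Wild-type replicate 4 was the library apart in 7 of these groups. It stood high in Trem2 (15401), Akr1a1 (49407), Acp5 (7346), Ms4a1 (1354) and Cd79a (2567), and in the summed B cell markers (12997) and adipocyte markers (20347). Wild-type replicate 3 was high in Arid3a (244.8) and low in Klrb1b (106.8).

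Among null libraries, replicate 3 was high in Usp18 (1624) and in the summed monocyte markers (55065) and low in Chac1 (63.3). Replicate 4 was high in Myct1 (3.71, the others being at 1) and Cd36 (59243) and low in Slc18a2 (108.6), and replicate 1 was high in Lyz2 (346445).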

How the results depend on the processing

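The number of genes called in fat was 1 as reported and 29 with DESeq2, 0 with edgeR's robust fit, 2 without both libraries that stand apart (both added after seeing the data), and 1 to 3 over the libraries left out in turn, with 3 without null replicate 4. A paired fit with the replicate block called 1 gene. Nlrp3 kept its sign throughout, from -8.50 to -5.93, with an adjusted p of 4.89e-11 to 0.38. The one above 0.05 came from the robust edgeR fit, and the cause was not tested. For the organ by genotype test the count was 0, 1 with edgeR, 0 with the replicate block within organ, and 0 to 5 over the libraries left out in turn, with 5 without spleen null replicate 3. The number of genes at an unadjusted p under 0.05 in fat was 647 to 1076.

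Of 1670 values of named genes under alternatives 1627 kept their sign and side of the threshold, 11 turned sign, 31 passed the threshold (28 of them with DESeq2) and 1 lost it. Those that turned were uncalled, with intervals across 0. Over the libraries left out in turn, Trem2 ran from -0.35 to 0.18, Ccr2 from -0.0154 to 0.31, Pycard from -0.0619 to 0.0838, Itgam from -0.0126 to 0.18, Retnlg from -0.27 to 1.54 and Arntl from -0.23 to 0.0354. Without both libraries that stand apart Pycard was -0.0511.

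Of the 785 genes with a log2 difference of at least 1 in size, 651 had a mean under 100, and 4 libraries per genotype limit the precision of every value. Other scalings moved the median of all genes from 0.01 to between -0.009 and 0.0095.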
